A study of Mus musculus with 2 samples.

Results

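The Trim genes of the mouse were followed in RNA from immortalised embryonic fibroblasts (MEFs) without and with p65. Members were all gene symbols that begin with Trim followed by a number. The RefSeq gene table holds 69 such symbols, and 51 of them had a transcript among the 16881 transcripts of the deposited table. The other 18 were not analysed here: Trim9, Trim10, Trim30b, Trim30c, Trim30e-ps1, Trim31, Trim34b, Trim38, Trim40, Trim42, Trim43b, Trim55, Trim58, Trim60, Trim61, Trim63, Trim75 and Trim80. The cells were p65-/- MEFs and p65+/+ MEFs, both C57BL/6 and both immortalised, with 1 library of each, made from total RNA and sequenced on an Illumina HiSeq instrument. They are called p65-null and wild-type below. The labels name no stimulus, do not say how the cells were immortalised, and do not say whether the genotypes are littermate lines. With 1 library per genotype no difference has a replicate check, genotype and cell line cannot be told apart, and no p-value can be given. In such bulk RNA, fewer cells of a type and less RNA per cell cannot be told apart either.

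TRIM proteins carry a RING finger, 1 or more B-boxes and a coiled coil, and most differ in what follows the coiled coil. The RING makes most of them ubiquitin ligases: they pass ubiquitin from an E2 enzyme to a substrate. A large class ends in a PRY-SPRY domain that binds targets, and this class holds the antiviral TRIM proteins, of which primate TRIM5 (a factor that binds retroviral capsids) and TRIM21 (a receptor for antibody inside the cell) are the best known. Several TRIM proteins act on the pathways that lead to type I interferon and to NF-kB, and the genes of several are themselves induced by interferon. The Rela gene encodes p65, an NF-kB subunit that activates transcription.

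The p65-null library held 15441394 fragments and the wild-type library 20794476. Values are fragments, recovered from the deposited scaled signal, and normalised CPM, that is, fragments scaled to library size with trimmed-mean (TMM) factors. A fragment was taken as 2 reads, so that a single counted read is 0.5 fragment. The labels do not say whether reads were paired. Each ratio sets p65-null over wild-type, and the range that follows it is its 95% Clopper-Pearson interval for counting error alone. Reads were not tagged as molecules, so repeated copies are not accounted for. A count of 0 was set to 3 fragments, which equals 0.198 CPM in the p65-null and 0.141 CPM in the wild-type library. Rela had 198.5 fragments in p65-null and 1918 in wild-type, 6.90-fold lower in p65-null. All 12 fibroblast markers looked up were at 1 CPM or more in both libraries, but their levels differed, with a summed 26086 CPM in p65-null and 12663 CPM in wild-type. Of the 12, 6 were at least 2-fold higher in p65-null, such as S100a4 with 1509 CPM in p65-null and 121 CPM in wild-type, and 1 was lower, Thy1, with 9.64 CPM in p65-null and 82.9 CPM in wild-type.

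Of the 51 Trim genes, 33 reached a mean of 1 CPM over both libraries and are called measured. Of those 33, 8 had a ratio of at least 2 in favour of p65-null (24.2%), against 12.1% of the 12134 measured genes of the whole table. A further 3 were at least 2-fold lower (9.09%), against 13.7% of all measured genes. The other 22 lay within 2-fold, 10 of them above and 12 below a log2 ratio of 0, and the counting interval of 5 held 0. The median log2 ratio was 0.30 over the measured Trim genes and -0.026 over all measured genes. The higher genes were Trim30a, Trim30d, Trim12a, Trim12c, Trim21, Trim68, Trim7 and Trim45, and the lower genes were Trim59, Trim16 and Trim2. The whole interval lay past 2-fold for 6 higher genes and for 1 lower gene. Over the 12134 measured genes it did so for 965 higher and 1105 lower genes. The 6 were Trim30a, Trim30d, Trim12a, Trim12c, Trim21 and Trim45.

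The count of higher genes depends on how the minimum is set. Trim30a, Trim30d, Trim12a, Trim12c and Trim7 passed it through the p65-null library alone, so that they had to be higher there. Among the 28 Trim genes with at least 1 CPM in each library, a setting chosen after seeing the data, 3 were at least 2-fold higher and 3 were lower, and the median log2 ratio was -0.053. All 11343 genes under that setting had a median of -0.035, with 1082 higher and 1364 lower. With all 33, the split of higher against lower Trim genes was 10 against 1 with upper quartile factors, 8 against 6 with scaling to ribosomal protein genes, and 9 against 1 after correction for GC content and length.

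**Figure D1:**
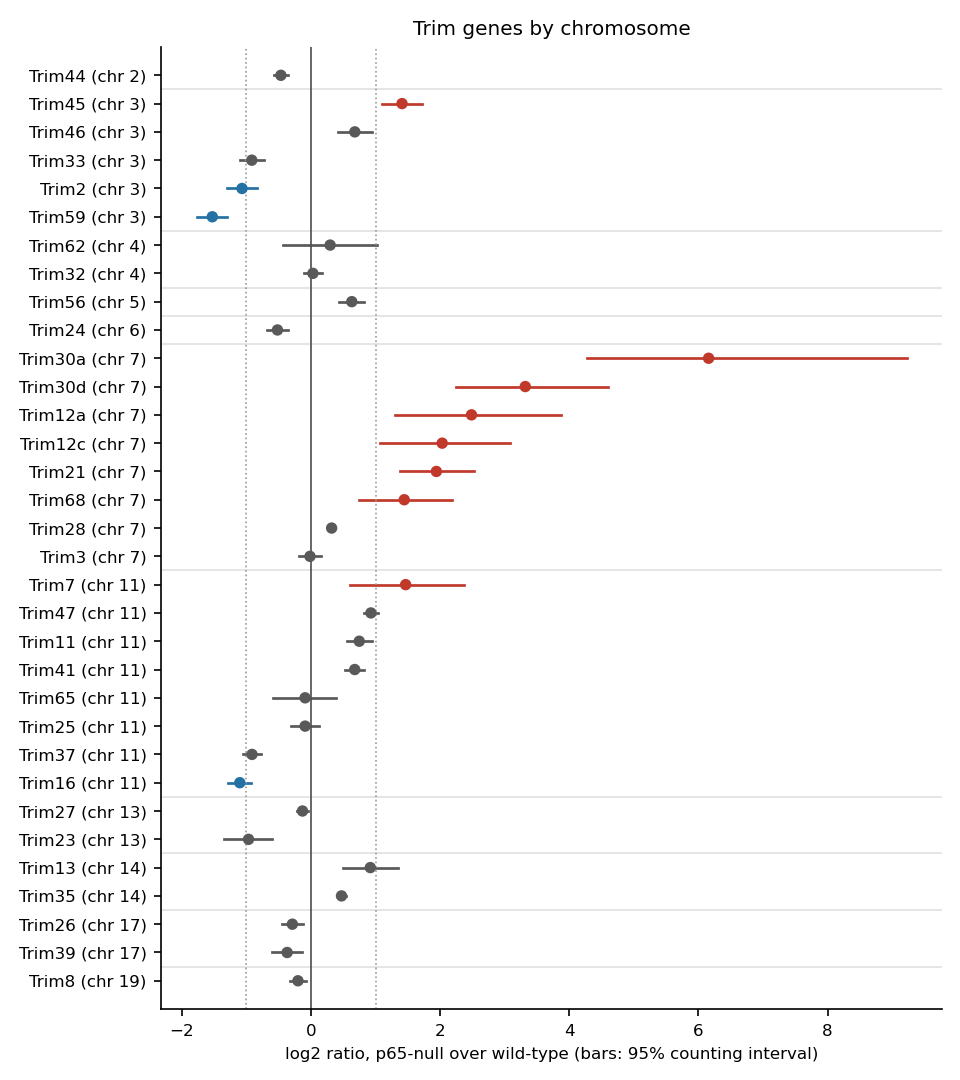
Log2 ratio, p65-null over wild-type, of the 33 measured Trim genes, grouped by chromosome; points are ratios from 1 library per genotype, bars their 95% counting intervals, and dotted lines mark 2-fold. Red genes were at least 2-fold higher and blue genes at least 2-fold lower in p65-null. Of the 8 red genes, 6 are on chromosome 7, where Trim30a stands at 6.16. Trim30a, Trim30d, Trim12a, Trim12c and Trim7 passed the minimum through p65-null alone and so had to be higher.

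The highest ratios lay in a tandem array on mouse chromosome 7. In GRCm38 the array runs over chr7:104218795-104535361 from Trim6 to Trim30e-ps1 and holds 11 annotated Trim genes, of which 7 were matched and 4 were measured. Rodents have expanded this region, which corresponds to that of TRIM5, TRIM6, TRIM22 and TRIM34 in primates. Summed over the 7 genes, the array had 258 fragments in p65-null and 34 in wild-type, or 17.0 and 1.60 CPM. The sum was 10.6-fold higher in p65-null (7.41 to 15.7), and all 7 ratios were above 1.

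The wild-type library was close to 0, and the p65-null library was not, for Trim30a (chr7:104409025-104465193, minus strand). Its product is known in mouse to restrain Toll-like receptor signalling to NF-kB by lowering TAB2 and TAB3. Trim30a had 102 fragments in p65-null and 2 in wild-type, 6.74 and 0.0943 CPM, a ratio of 71.4 (19.3 to 598) that rests on the 2 wild-type fragments. Its paralogue Trim30d (chr7:104470014-104507853, minus strand) had 57 fragments in p65-null and 8 in wild-type, 9.98-fold higher (4.74 to 24.2). Both Trim30 genes were thus low in the wild-type library, with at most 8 fragments.

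Trim12a and Trim12c are rodent relatives of primate TRIM5. Trim12a (chr7:104299893-104315558, minus strand) had 30 fragments in p65-null and 7.5 in wild-type, 5.60-fold higher (2.46 to 14.6). Trim12c (chr7:104338754-104353358, minus strand) had 36.5 fragments in p65-null and 12.5 in wild-type, 4.09-fold higher (2.10 to 8.50). Both genes were above 1 CPM in p65-null and below it in wild-type.

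The other 3 genes of the array were below the minimum. Trim34a, whose human counterpart binds retroviral capsids, had 21 fragments in p65-null and 1 in wild-type, a ratio of 29.4 (4.73 to 1216). Trim6, whose human counterpart builds ubiquitin chains that activate IKK-epsilon, had 8 fragments in p65-null and 2 in wild-type, a ratio of 5.60 (1.12 to 54.2). Trim5 had 3.5 fragments in p65-null and 1 in wild-type, a ratio of 4.90 (0.444 to 248). For Trim5 the depth could not show a difference, since its interval held 1.

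**Figure D2:**
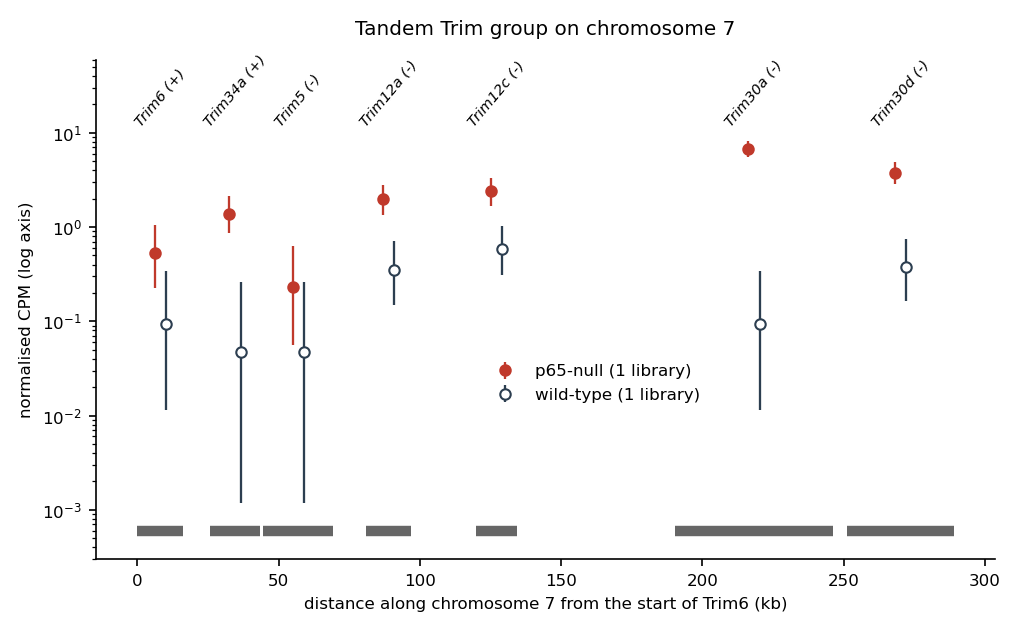
Normalised CPM (log axis) of the 7 matched genes of the chromosome 7 array against distance from the start of Trim6 in kb; filled points are the p65-null and open points the wild-type library, bars are 95% counting intervals, and grey blocks are the gene bodies. The p65-null point lies above the wild-type point for each gene, with 6.74 against 0.0943 CPM at Trim30a.

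Tandem copies can share reads, and the sources used here do not give how such reads were assigned. The ratios of single array genes are therefore uncertain, and the sum over the array depends less on how reads were split. Among stretches of 50 bases in GENCODE transcripts, Trim30a shared 6.53% with other genes, Trim30d 15.4%, Trim12a 31.2%, Trim12c 33.7% and Trim5 38.1%. Trim34a shared 41.5% of its stretches, all of them with Trim34b, which was not analysed here. Trim6 shared none.

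Trim30a is known from macrophages and other blood cells of the mouse, so the markers of such cells are given beside the array. Of 8 markers looked up, 5 were matched, with a summed level of 5.61 CPM in p65-null and 3.68 CPM in wild-type. Ptprc, which marks all white blood cells, had 0 fragments in p65-null and 2 in wild-type, and Itgam had 1 in each library. Lyz2 had 6.5 fragments in p65-null and 2 in wild-type (log2 2.19, -0.25 to 5.51). Cd68 was at 4.06 CPM in p65-null and 1.37 CPM in wild-type, whereas Csf1r was at 1.06 CPM in p65-null and 2.07 CPM in wild-type. Among 6 epithelial markers the summed level was 2.81 CPM in p65-null and 0.118 CPM in wild-type, with 0 of them at 0 in p65-null and 4 in wild-type, and their part in the result was not tested. The 4 endothelial markers summed to 2.18 CPM in p65-null and 3.40 CPM in wild-type.

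A second pair of Trim genes lies on the same chromosome, at chr7:102557920-102687335. Trim21, the cytosolic antibody receptor, had 101.5 fragments in p65-null and 37 in wild-type, 6.70 and 1.74 CPM, 3.84-fold higher (2.61 to 5.76). Trim68, known in human cells as a ligase for the androgen receptor, had 51.5 fragments in p65-null and 26.5 in wild-type, 2.72-fold higher (1.67 to 4.53). Both had at least 1 CPM in each library, and the interval of Trim21 lay wholly past 2-fold while that of Trim68 did not. Summed, the pair was 3.37-fold higher in p65-null (2.50 to 4.60).

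Of the 6 measured genes that flank both chromosome 7 groups, 1 passed 2-fold. On the near side, Rhog, Stim1 (the calcium sensor of the endoplasmic reticulum) and Rrm1 (a subunit of ribonucleotide reductase) had log2 ratios of 0.32, -0.12 and -0.16. On the far side, Fam160a2 and Gm5901 had 0.30 and -0.36, and Cavin3 (a caveolar coat protein) had 2.17. Cavin3 lies 945 kb beyond the array and had 1904 fragments in p65-null and 594.5 in wild-type. Apart from Trim genes, no measured gene lay between Rrm1, 88.1 kb before Trim21, and Fam160a2, 836 kb after the array.

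Of the 33 measured genes, 27 lay outside the chromosome 7 groups. Among these, 2 were at least 2-fold higher and 3 were lower, and the median log2 ratio was -0.091. All measured genes had a median of -0.026, with 12.1% higher and 13.7% lower. Over all of chromosome 7, 13 Trim genes were matched, 8 measured, 6 higher and 0 lower. Chromosome 11 had 9 matched, 8 measured, 1 higher and 1 lower, and chromosome 3 had 5 matched and measured, 1 higher and 2 lower. Trim30a, Trim30d, Trim12a and Trim12c on chromosome 7 and Trim7 on chromosome 11 passed the minimum through p65-null alone and so had to be higher.

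The promoters of the chromosome 7 genes are shown because 6 of the 7 array genes carry the core of an interferon-stimulated response element, a motif found at many genes that interferon induces. The sequences are RefSeq promoters of GRCm38.p6, read along the strand of the gene, with 30 bases before the first match. Capitals mark GAAANNGAAA or, on the opposite strand, TTTCNNTTTC, where N is any base. A match describes the letters and is not evidence of a bound site.
Trim34a, chr7:104244437-104244486, plus strand: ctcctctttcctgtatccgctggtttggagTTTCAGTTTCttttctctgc
Trim5, chr7:104288136-104288185, minus strand: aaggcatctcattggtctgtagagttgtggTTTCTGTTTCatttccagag
Trim12a, chr7:104315466-104315515, minus strand: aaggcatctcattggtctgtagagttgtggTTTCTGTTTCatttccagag
Trim12c, chr7:104353359-104353408, minus strand: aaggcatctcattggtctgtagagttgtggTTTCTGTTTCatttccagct
Trim30a, chr7:104465210-104465259, minus strand: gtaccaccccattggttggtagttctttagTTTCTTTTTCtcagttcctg
Trim30d, chr7:104507871-104507920, minus strand: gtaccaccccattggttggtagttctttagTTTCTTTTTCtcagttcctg
Trim21, chr7:102565453-102565499, minus strand: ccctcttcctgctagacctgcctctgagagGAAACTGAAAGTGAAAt

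The windows fall into families of near copies. Those of Trim5 and Trim12a were identical over 50 bases, and Trim12c matched either at 48 of 50 (96%). The printed windows of Trim30a and Trim30d were also identical, while those of Trim12a and Trim30a matched at 27 of 50 bases (54%). A window at an alternative start of Trim30a, chr7:104446104-104446153, also held the core and matched that of Trim30d at 34 of 50 bases (68%) and that of Trim12a at 20 of 50 (40%). Trim21 holds a pair of overlapping matches, both on the strand of the gene, that begin 14 and 20 bases after the start site. The array genes hold theirs on the opposite strand. Since the copies share their descent, the matches are not independent of each other.

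Of the 51 Trim genes, 38 had a RefSeq promoter, taken as 250 bases before to 50 after a start site, and 9 of them held the core (23.7%). Among all 27025 genes with a promoter in the table, 1079 held it (3.99%). It was in 5 of 8 Trim genes at least 2-fold higher (62.5%), 1 of 2 at least 2-fold lower and 1 of 16 within 2-fold (6.25%). Of those 5, 4 were the array genes that passed the minimum through p65-null alone and so had to be higher. Among the other 4 higher genes the core was in 1, Trim21, so the contrast of these shares rests on the array. Over all measured genes the shares were 5.62% of those at least 2-fold higher and 3.51% of all. Outside chromosome 7 the core was in Trim26, at -160 and -154 from the start site, and at 1 alternative start of Trim2. The kB consensus, the motif bound by NF-kB dimers, was in 5 of the 38 (13.2%), namely Trim7, Trim13, Trim28, Trim43a and Trim46, against 9.55% of all genes with a promoter. Among measured genes the consensus was in 4 of 26 Trim genes (15.4%) and in 12.5% of all. The array held 0 matches to it in these windows, and among the Trim genes at least 2-fold higher it was in Trim7.

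**Figure D3:**
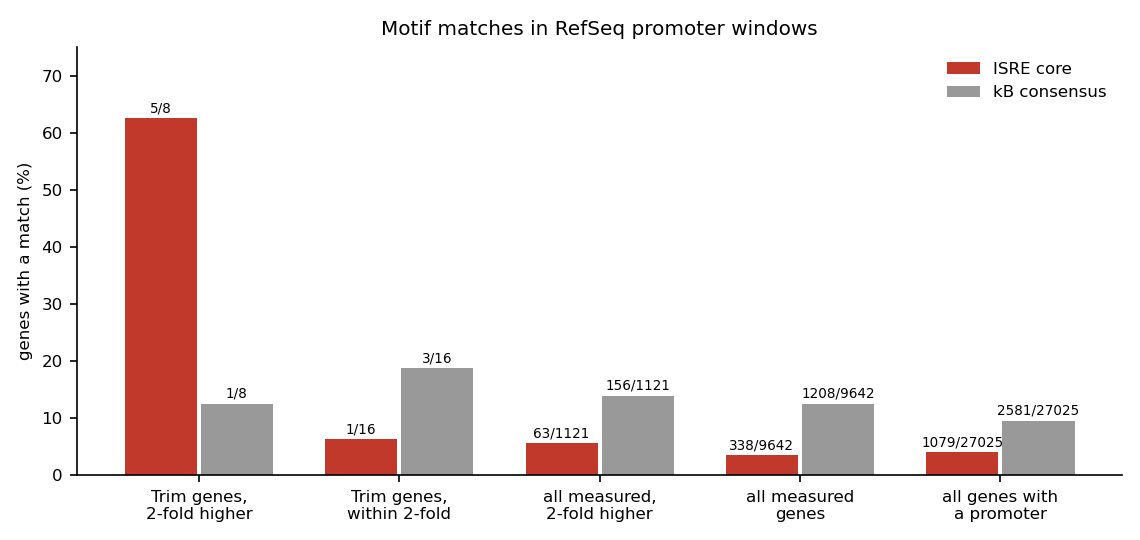
Percent of genes whose promoter holds the interferon-stimulated response element core or the kB consensus, for groups of Trim genes and for all genes; labels give genes with a match over genes with a promoter. The core was in 62.5% of the Trim genes at least 2-fold higher in p65-null, 4 of those 5 being array genes, and in 3.99% of all genes.

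The list of antiviral and interferon-linked Trim genes has 20 names, of which 16 were matched and 12 measured. There were 5 at least 2-fold higher, 0 lower and 7 within 2-fold among the 12, and their median log2 ratio was 0.27. Over all measured genes 12.1% were higher and 13.7% lower. The 5 were Trim21 and the 4 measured array genes. Those 4 passed the minimum through p65-null alone and so had to be higher there, which also raises the median of the list. Of the 8 members with at least 1 CPM in each library, 1 was higher, Trim21, against 9.54% of all genes under that minimum. The 3 members of the list with most fragments were nearer to 0. Trim27, first known as a fusion partner of the kinase RET, had 142 CPM in p65-null and 155 CPM in wild-type, a log2 ratio of -0.13. Trim8, a regulator of TNF and interleukin-1 signalling, had 57.7 CPM in p65-null and 66.3 CPM in wild-type (-0.20). Trim26 had 33.5 CPM in p65-null and 40.9 CPM in wild-type (-0.29).

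Trim25, the ligase that modifies the RNA sensor RIG-I, had 306 fragments in p65-null and 456.5 in wild-type, 20.2 and 21.5 CPM. Its log2 ratio of -0.091 had an interval that held 0 (-0.30 to 0.12), and it was 0.024 with upper quartile factors. Trim56, an antiviral ligase linked to the DNA-sensing pathway, had 31.3 CPM in p65-null and 20.2 CPM in wild-type (0.63, 0.44 to 0.82). Trim65, a ligase of the RNA sensor MDA5, had 4.03 CPM in p65-null and 4.29 CPM in wild-type (-0.091, -0.58 to 0.39). Trim23, which ends in an ARF-like GTPase domain, had 5.68 CPM in p65-null and 11.1 CPM in wild-type; its log2 ratio of -0.97 became 0.33 after correction for GC content and length. Trim14, an adaptor at MAVS that has no RING, had 7 fragments in p65-null and 3 in wild-type, with an interval that held 0.

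Genes around these Trim proteins, on a list of RIG-I and interferon partners, were all matched and measured. Among the 24, the ratio of 13 was at least 2-fold in favour of p65-null and that of 0 in favour of wild-type, and the median log2 ratio was 1.07. The shares over all measured genes were 12.1% and 13.7%. Of the 13, 6 passed the minimum through p65-null alone and so had to be higher there, which also raises the median. These 6 were Ifih1, Dhx58, Irf7, Isg15, Usp18 and Uba7. With at least 1 CPM in each library, 7 of the 18 partners were higher, against 9.54% of all genes under that minimum. The RNA sensor gene Ifih1, which encodes MDA5, had 121 fragments in p65-null and 8 in wild-type (log2 4.40). Uba7, the E1 enzyme of the ubiquitin-like ISG15 system, had 110.5 fragments in p65-null and 6.5 in wild-type (4.57), and its E2, Ube2l6, had 230.5 in p65-null and 61 in wild-type. Ddx58, which encodes RIG-I, was within 2-fold, at 37.4 CPM in p65-null and 24.3 CPM in wild-type (0.62). The receptor chain gene Ifnar1 was also within 2-fold (-0.18), as were the TRAF ligases Traf3 (-0.66) and Traf6 (-0.71).

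Trim28, also called KAP1, is the co-repressor that KRAB zinc finger proteins bring to chromatin. It was the most abundant Trim gene per kilobase of transcript, at 213 FPKM in p65-null and 171 FPKM in wild-type, which was 40.8% of the summed FPKM of the measured Trim genes in p65-null and 37.5% in wild-type. It had 10471 fragments in p65-null and 11750 in wild-type, a log2 ratio of 0.32 (0.28 to 0.36), that was -0.085 with scaling to ribosomal protein genes and -0.061 after correction for GC content and length. The next levels per kilobase were 57.5 FPKM in p65-null and 41.5 FPKM in wild-type for Trim35, and 53.1 FPKM in p65-null and 27.9 FPKM in wild-type for Trim47. The median over measured Trim genes was 4.60 FPKM in p65-null and 4.50 FPKM in wild-type, against 8.95 and 9.26 FPKM over all measured genes.

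**Figure D4:**
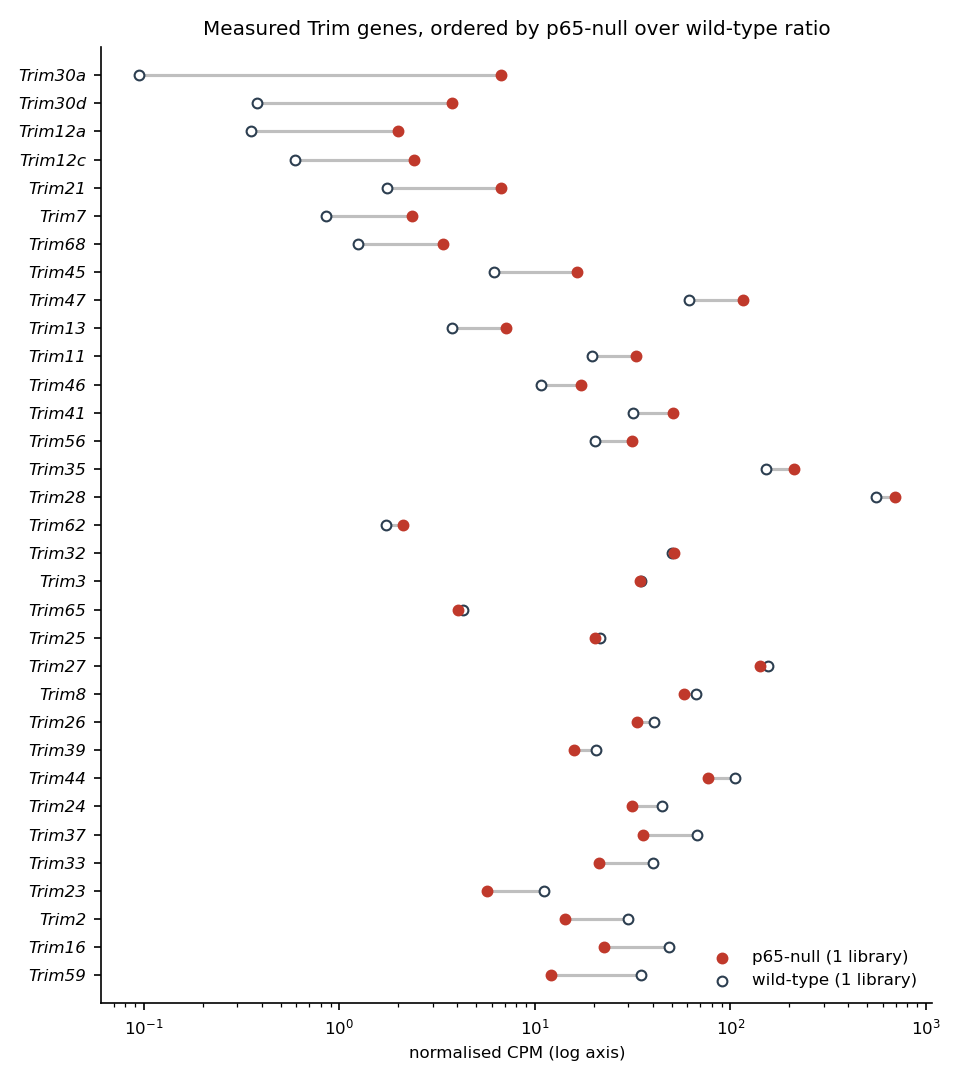
Normalised CPM (log axis) of the 33 measured Trim genes in the p65-null library (filled) and the wild-type library (open), ordered by their ratio. Trim28 is at 692 CPM in p65-null and 554 CPM in wild-type, and the widest gap is that of Trim30a, with 6.74 CPM in p65-null and 0.0943 CPM in wild-type.

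The other measured chromatin Trim genes, of the TIF1 group, were lower in p65-null but within 2-fold. Trim24, a co-regulator of nuclear receptors, had 31.2 CPM in p65-null and 44.7 CPM in wild-type, a log2 ratio of -0.52 (-0.68 to -0.36). Trim33, a regulator of SMAD signalling, had 21.2 CPM in p65-null and 40.0 CPM in wild-type (-0.92, -1.11 to -0.73), which became -0.26 after the correction. Trim66 was below the minimum, at 10 fragments in p65-null and 14 in wild-type (0.00). Of 11 partners of Trim28, such as the methyltransferase Setdb1 and the heterochromatin proteins Cbx1, Cbx3 and Cbx5, 0 passed 2-fold in either direction. Over all measured genes 12.1% were higher and 13.7% lower. The partners ranged from -0.95 at Cbx5 to 0.85 at Chd3, with a median log2 ratio of -0.14.

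Among the genes with NHL repeats, a domain that binds RNA and proteins, 3 of 4 were measured. Trim2, a ligase known in mouse neurons for neurofilament light chain, had 215 fragments in p65-null and 631.5 in wild-type, 14.2 and 29.8 CPM, 2.10-fold lower in p65-null (1.79 to 2.46). It was within 2-fold with upper quartile factors (log2 -0.95) and after the correction (-0.60). Trim3 had 34.6 CPM in p65-null and 35.0 CPM in wild-type, and Trim32, mutated in a human limb-girdle muscular dystrophy, had 51.4 CPM in p65-null and 50.4 CPM in wild-type. The intervals of both held a log2 ratio of 0, and the direction of each changed with the scaling. Trim71, the stem-cell gene also called Lin41, was below the minimum, at 13.5 fragments in p65-null and 3 in wild-type, a ratio of 6.30 (1.75 to 34.3).

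The lower genes with other structures were Trim59 and Trim16. Trim59, held in membranes by a transmembrane segment, had 183 fragments in p65-null and 739.5 in wild-type, 12.1 and 34.9 CPM, 2.89-fold lower in p65-null (2.45 to 3.41). Its transcript is 37.6% GC, and the corrected log2 ratio was -0.32 where the uncorrected one was -1.53. Trim16, which has no RING and acts in the clearance of damaged lysosomes, had 341 fragments in p65-null and 1025.5 in wild-type, 22.5 and 48.4 CPM, 2.15-fold lower in p65-null (1.90 to 2.43). Its corrected log2 ratio was -1.04, and it was -0.99 with upper quartile factors. Thus 1 of the 3 lower genes, Trim16, stayed at least 2-fold lower after the correction.

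Beside these, Trim13, a ligase of the endoplasmic reticulum membrane, had 108 fragments in p65-null and 80 in wild-type (log2 0.92, 0.49 to 1.35). It shared 15.1% of its 50-base stretches with the predicted gene Gm9359 and overlaps Dleu2 on the opposite strand. Trim44, a B-box protein without a RING, had 76.6 CPM in p65-null and 106 CPM in wild-type (-0.47). Trim37, a MATH-domain ligase mutated in human mulibrey nanism, had 35.8 CPM in p65-null and 67.4 CPM in wild-type (-0.91, -1.06 to -0.77). Trim45, which ends in a filamin-type repeat, had 249.5 fragments in p65-null and 131.5 in wild-type, 16.5 and 6.20 CPM, 2.66-fold higher (2.14 to 3.31). It was at least 1 CPM in both libraries and shared none of its stretches with another gene. Trim46, which bundles axonal microtubules in neurons, had 17.2 CPM in p65-null and 10.7 CPM in wild-type (0.68). The measured genes outside these groups were Trim39, at a log2 ratio of -0.37, Trim62, at 0.30 with an interval that held 0, and Trim35, at 0.47 (0.40 to 0.54).

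Shorter tandem groups lie on chromosomes 11 and 17. Trim41 and Trim7, at chr11:48806403-48851192, summed to 804.5 fragments in p65-null and 691.5 in wild-type, 1.63-fold higher (1.47 to 1.81). Trim41 alone had 769 fragments in p65-null and 673.5 in wild-type (log2 0.68), and it meets the ribosomal scaffold gene Rack1, with a log2 ratio of 0.78, on the opposite strand. Trim7, a glycogenin-binding ligase, had 35.5 fragments in p65-null and 18 in wild-type, 2.76-fold higher (1.53 to 5.17). The sources used here do not say whether counting used strand, so overlapping genes may share reads.

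The 3 neighbours of Trim41 and Trim7 on the far side had log2 ratios below 0. Irgm1, an interferon-inducible GTPase, had 857.5 fragments in p65-null and 1842.5 in wild-type (log2 -0.62). Psme2b had 15.5 fragments in p65-null and 53 in wild-type (-1.29), and 9930111J21Rik1 had 2 in p65-null and 70.5 in wild-type (-4.65, -7.73 to -2.75). The latter passed the minimum through wild-type alone and so had to be lower in p65-null. On the near side Snord96a was at -0.11 and Sgcd, a sarcoglycan gene, at -0.60.

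Trim17 and Trim11, at chr11:58954671-58991462, summed to 503 fragments in p65-null and 424.5 in wild-type, 1.66-fold higher (1.46 to 1.89). Nearly all of this was Trim11, with 497.5 fragments in p65-null and 415 in wild-type; Trim17 had 5.5 in p65-null and 9.5 in wild-type. The histone gene H2aw lies within the group, at 0.77, and the histone gene H2bu2, 5.30 kb before it, was at 2.12 with 28 fragments in p65-null and 9 in wild-type. H2bu2 passed the minimum through p65-null alone and so had to be higher there. The other neighbours, Rnf187, Zfp39, Iba57, Guk1 and 2610507I01Rik, lay between -0.012 and 0.68.

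Trim47 and Trim65, at chr11:116105750-116131413, summed to 1823 fragments in p65-null and 1388 in wild-type, 1.84-fold higher (1.71 to 1.97). Trim47 gave most of it, with 1762 fragments in p65-null and 1297 in wild-type (log2 0.93); Trim65 had 61 in p65-null and 91 in wild-type. The neighbours Wbp2, Unk, H3f3b, Mrpl38 and Fbf1 were above 0, from 0.27 at H3f3b to 0.88 at Fbf1. Trim26 and Trim15, the matched genes of the 5 annotated at chr17:36837123-36910217, summed to 506.5 fragments in p65-null and 871.5 in wild-type (-0.30, -0.46 to -0.14). Their neighbours Rpp21, Ppp1r11, Znrd1 and Znrd1as were between -0.58 and -0.32, and the class I-like genes H2-T22 and H2-T23 were at 0.41 and 0.46. After the correction for GC content and length the 3 groups on chromosome 11 stood at 0.28 to 0.36, whereas the chromosome 7 array stood at 4.03 and the pair of Trim21 and Trim68 at 1.88.

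Ratios moved with the GC content of the transcript over the whole table. Spearman's rho between GC content and log2 ratio was 0.44 across 11989 measured genes and 0.14 across the 33 measured Trim genes, given as a description, since genes of a library share its preparation and depth. Low GC content went with low ratios over all genes. Among Trim genes of low GC content, Trim59 (37.6% GC) and Trim23 (37.4% GC) were at log2 ratios of -1.53 and -0.97. Trim30a, at 40.8% GC, and Trim12c, at 41.0% GC, were at 6.16 and 2.03. These last genes passed the minimum through p65-null alone and so had to be higher there. After the correction the median log2 ratio of the Trim genes was -0.013 and that of all measured genes -0.028, with 9 Trim genes at least 2-fold higher and 1 lower. Trim13 was at least 2-fold higher only after the correction and with upper quartile factors (log2 1.45 and 1.03), and Trim47 with upper quartile factors (1.04).

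**Figure D5:**
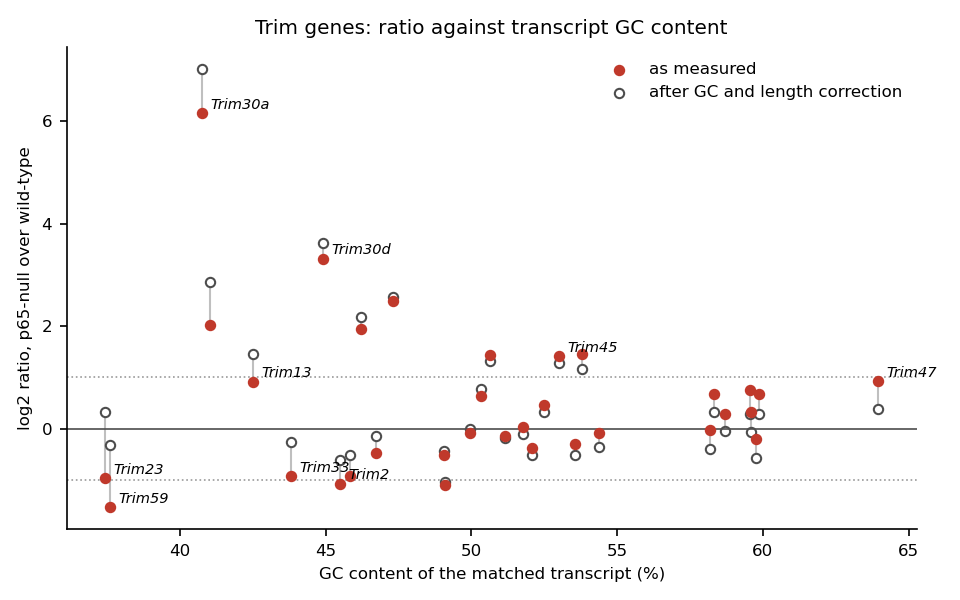
Log2 ratio, p65-null over wild-type, against GC content (%) of the matched transcript for the 33 measured Trim genes, as measured (filled) and after GC and length correction (open), joined by a line; dotted lines mark 2-fold. The correction takes Trim59 to -0.32 where it was -1.53 as measured, and leaves Trim30a above 6.

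Of the 18 Trim genes below the minimum, no gene had more than 21 fragments in p65-null or 16 in wild-type. Trim36, a gene of the COS-box class that binds microtubules, had 1 fragment in p65-null and 16 in wild-type, a ratio of 0.0875 (0.00209 to 0.563). Trim43c had 0 fragments in p65-null and 11 in wild-type. It was 2.62-fold lower with the 0 set to the 3-fragment floor, and its counting interval reached up to 1.79-fold lower (log2 -0.84). Trim43c overlaps 9330159M07Rik on the opposite strand (log2 -1.07) and shared 42.4% of its stretches, mostly with Trim43b. Trim69 had 0 fragments in p65-null and 6.5 in wild-type, and Trim15 had 0 in p65-null and 5 in wild-type. The counting intervals of both, which reach up to log2 ratios of 0.097 and 0.61, held 0, so a difference was not detectable at this depth. The muscle genes Trim54 and Trim72, and Trim29, Trim43a, Trim50, Trim52 and Trim67, were at or under 3 fragments in both libraries, so that no ratio is given. Among 6 skeletal and heart muscle markers 4 were matched, with a summed level of 2.01 CPM in p65-null and 29.4 CPM in wild-type. Tnnt2 was at 0.859 CPM in p65-null and 29.1 CPM in wild-type, whereas Des was at 1.09 CPM in p65-null and 0.189 CPM in wild-type.

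TRIM proteins with other symbols were also looked up: of 7 names 4 were matched and 3 measured, with 0 past 2-fold. Pml, the scaffold of PML nuclear bodies, had 80.6 CPM in p65-null and 42.7 CPM in wild-type (log2 0.91), Mid1 had 24.5 CPM in p65-null and 13.7 CPM in wild-type (0.84), and Mid2 had 7.07 CPM in p65-null and 10.1 CPM in wild-type (-0.52). Of 14 ubiquitin E1 and E2 genes that serve RING ligases, 0 were at least 2-fold higher and 3 were lower. The shares over all measured genes were 12.1% and 13.7%. The median log2 ratio of the 14 was -0.48, and -0.15 after the correction. The 3 were the E1 gene Uba6 (15.2 CPM in p65-null and 48.4 CPM in wild-type, log2 -1.67), the E2 gene Ube2d2a (26.5 CPM in p65-null and 68.9 CPM in wild-type, -1.38) and the E2 variant Ube2v2 (2.54 CPM in p65-null and 10.7 CPM in wild-type, -2.08). After the correction Uba6 was at -0.30 and Ube2v2 at -0.50, while Ube2d2a was at -1.13.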

How the data were processed

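RNA from 1 p65-null and 1 wild-type culture was analysed. Genotypes came from the labels, and columns were matched to libraries by name. The submitters' processing notes list the build mm10 and the tools HOMER, edgeR, STAR 2.4 and bcl2fastq 2.16, with no roles. The sources used here do not give the aligner settings, counting rule, use of strand, annotation or filters. The deposited values, labelled as raw counts, are a scaled signal with equal column totals, 18117930 for p65-null and 18117934 for wild-type, so the unit was not the one assumed at the start. Values were whole multiples of a step (0.587 in p65-null, 0.436 in wild-type): all 12156 p65-null and 11943 wild-type values above 0 and up to 1000 came out whole (100%) within 0.0055. A fragment was taken as 2 steps, because even multiples made up 75.7% and 72.8% of values of few steps. The recovered reads were put to no count test, because with a single library in each genotype the spread cannot be estimated.

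Symbols, coordinates and promoters came from RefSeq (GRCm38.p6; 16743 transcripts matched), with 83 more from GENCODE M21 and 55 unmatched; the unmatched held 3.84% of p65-null and 3.13% of wild-type fragments. TMM factors (edgeR 4.0.16, R 4.3.3) were 0.981 and 1.02. Genes were taken as measured where the 2 libraries averaged 1 CPM or more, and a ratio of at least 2-fold was counted as higher or lower. GC content and length of GENCODE transcripts (98.8% of measured genes) were corrected by loess with span 0.3, and FPKM used those lengths. Tandem groups were Trim symbols less than 200 kb apart, with the 3 nearest measured genes on each side named, except 1 that is not reported here. The ratio step was tested on simulated data. Per-library values were given for members past 2-fold, in tandem groups or at 0 in 1 library; the others were given by role, the most abundant first. Members and lists were chosen with earlier results of these data known, and some other genes were named after their values were seen. The table had 0 columns of other samples. Alternatives were DESeq2 1.42.0, total, upper quartile and ribosomal scaling, thinning, the GC and length correction, other minimums, a prior count of 2, a 4-fold cut-off, intervals wholly past 2-fold, and means.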

Additional observations from a re-analysis of the deposited data

How the results depend on the processing

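No paired analysis was possible because each genotype had 1 library and the labels give no replicate numbers. The count of Trim genes at least 2-fold higher, 8, was 13 without a minimum, 1 with a minimum mean of 5 CPM, 4 for a 4-fold ratio, and 3 with at least 1 CPM in each library. The count lower, 3, was 1 with upper quartile factors, 6 with ribosomal scaling, 1 after GC and length correction, 5 without a minimum, 1 for intervals wholly past 2-fold and 0 for a 4-fold ratio. The median log2 ratio of 0.30 changed sign to -0.11 with ribosomal scaling (all genes -0.43, a shift of -0.40), to -0.013 after the correction, to -0.11 at 5 CPM and to -0.053 with 1 CPM in each library; upper quartile factors shifted all genes by 0.12. The last minimum was chosen after seeing the data.

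With ribosomal scaling the tandem groups stood at 0.30 (Trim41 and Trim7), 0.33 (Trim17 and Trim11), 0.47 (Trim47 and Trim65) and -0.70 (Trim26 and Trim15). After the correction they stood at 0.36, 0.28, 0.35 and -0.52 in the same order, and the chromosome 7 array at 4.03. Upper quartile factors put Trim47 and Trim65 at 0.99. The cause was not tested. Of 228 values for 38 single genes under 6 alternatives, 183 stayed within the counting interval and 45 left it. The sign changed in 11 of them, over 7 genes that were within 2-fold (Trim3, Trim23, Trim25, Trim28, Trim32, Trim62 and Trim65). Depth limits the genes with few fragments, such as Trim5 and Trim14, whose intervals held a ratio of 1.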
